A study of Rattus norvegicus with 36 samples.

Results

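The cytosolic ribosomal protein genes were described in the hippocampus of female rats. A row of the expression table was a member when its symbol followed the Rpl or Rps naming pattern or was Rplp0, Rplp1, Rplp2 or Rpsa. Pseudogenes, numbered like-genes and the Rps6k kinases were left out, and the mean had to reach 10 normalized counts. Of 20603 rows, 72 names matched, 10 were left out as numbered like-genes and 1 of the 62 candidates lay below the minimum. The 61 members encode 36 proteins of the large subunit and 25 of the small subunit. Of these, 57 carry the canonical name of a ribosomal protein and 4 (Rpl3l, Rpl10l, Rps27l and Rps4y2) are paralogs of one. Just inside the minimum stood Rpl3l, a muscle-associated paralog of Rpl3, with a mean of 11.9 normalized counts, and just outside it stood Rpl39l with a mean of 9.49.

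The study sequenced hippocampal RNA of 36 female rats, 6 in each of 6 groups named by reproductive status and age. Regular cyclers were taken at 6 months (Reg6m) and 9 months (Reg9m), irregular cyclers at 9 months (Irreg9m), and acyclic animals at 9 months (Acyc9m) and 16 months (Acyc16m). Animals of the sixth group (RegOVX10m) were ovariectomized at 9 months and sampled at 10 months. The labels give no strain and no other treatment. The 36 columns of values carry the tissue and a running number, and no label ties a number to an animal or a group. They are numbered here as libraries 1 to 36 and treated as 1 ungrouped set in which the 6 conditions are mixed, so no comparison between ages or reproductive states was made and no test was run. Correlations below are descriptions over libraries that share tissue, normalization and study, given with no p-value.

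Each cytosolic ribosome joins a small subunit, which reads the messenger RNA, to a large subunit, which makes the peptide bond, and most of their proteins are present as a single copy per ribosome. Messenger RNAs of ribosomal proteins typically begin with a cytosine followed by a run of pyrimidines, the 5′ terminal oligopyrimidine (TOP) motif, through which mTOR and the RNA-binding protein LARP1 control their translation together. In the brain these genes are expressed in neurons and glia alike, and ribosomes are also found in dendrites and axons.

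The start-site sequences are shown because the members share a feature there that the naming rule did not use. Each line gives the 10 bases before and the 20 bases from the RefSeq gene start on, 5′ to 3′ on the gene's strand in build GRCr8. Capitals mark a run of at least 6 consecutive C or T that has a base within 5 bases of the start. The first 5 genes are among those that followed the other members most closely, the next 3 have particular roles described below, and the last 4 are among the 7 canonical members that followed the others least.
Rpl35: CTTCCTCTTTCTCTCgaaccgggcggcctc
Rps23: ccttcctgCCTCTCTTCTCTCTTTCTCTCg
Rps15: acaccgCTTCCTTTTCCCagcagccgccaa
Rps3: ttcagcggcgcgcggcagcaagatggcggt
Rps12: gaagcccagcagagcgcttaaataccgtca
Rplp0: caccgcaCTTCTCTCgccaggcgtcctcat
Rps27a: agggcggTTCCTTCgacccggagactcggt
Rpl10: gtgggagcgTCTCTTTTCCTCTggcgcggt
Rpl17: ttcgcgCTTCCTCTTCCTgttagcggccag
Rpl12: aacatccgTCTTTTCggctttcggttcgga
Rpl13a: TCCTTTCCTaggcggctgccgaagatggcg
Rps6: ctcctaggcggtcggctgtgtcaagatgaa

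These windows lie at chr3:43165902-43165931 on the minus strand for Rpl35, chr2:23814507-23814536 on the plus strand for Rps23 and chr7:10068096-10068125 on the minus strand for Rps15. Rps3 is at chr1:163195757-163195786 on the minus strand and Rps12 at chr1:23500065-23500094 on the plus strand. Rplp0 is at chr12:46718371-46718400 on the minus strand, Rps27a at chr14:107488922-107488951 on the minus strand and Rpl10 at chrX:157205840-157205869 on the plus strand. Rpl17 is at chr18:70856266-70856295 and Rpl12 at chr3:36661930-36661959, both on the plus strand. Rpl13a is at chr1:104748894-104748923 and Rps6 at chr5:106420521-106420550, both on the minus strand.

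RefSeq start-site sequences were matched for 49 of the 61 members. A run of at least 6 C or T at the start was present in 32 of the 49, or 65.3%, against 18.7% of all 27457 rat promoters in the table. The median length of the longest run was 9 bases in the members and 3 bases in all promoters. Some members with no run of that length, such as Rps6, Rps3 and Rps12, have a start annotated in a sequence of mixed bases.

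Other letters were searched on both strands of the 300 bases from 250 before to 50 after the start. CTTTCC, which can lie inside the C or T run, was present in 49.0% of the matched members and in 26.4% of all promoters. CCGGAAG was present in 26.5% and 9.22%, AAGATGG in 14.3% and 7.30%, and TATAAA in 12.2% and 14.3%. A match of letters is a description of the sequence and not evidence of a site in use. The run was found in 26 of 39 matched members whose r with the other members was at least 0.5, and in 6 of 10 with a lower r.

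The deposited values are normalized counts, and column totals ranged from 34456000 to 35986000, rounded to the nearest 1000. The 61 members together made up 0.809 to 1.00% of a column's total, with a median of 0.893%. The 5 neuronal markers were present in every library (Snap25, a synaptic vesicle fusion protein, had a median of 70402 normalized counts), as were the astrocyte, oligodendrocyte and microglia markers. The choroid plexus transport protein Ttr varied from 4.59 to 1699 normalized counts.

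Most members varied little and moved together. For each gene the value log2(normalized count + 1) was centred on its mean over the 36 libraries, and the mean over the 61 members gave the ribosomal protein score of each library. The score ranged from -0.17 in library 35 to 0.17 in library 17, with a median of 0.01 and an SD of 0.079 over all libraries. The highest library thus stood 1.26-fold above the lowest. Libraries 34 and 21 were next lowest, at -0.15 and -0.13, and libraries 9 and 10 were next highest, at 0.13 and 0.12. The median step between neighbouring libraries was 0.0056. The widest, 0.039, lay at the top, between library 9 and library 17.

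**Figure D1:**
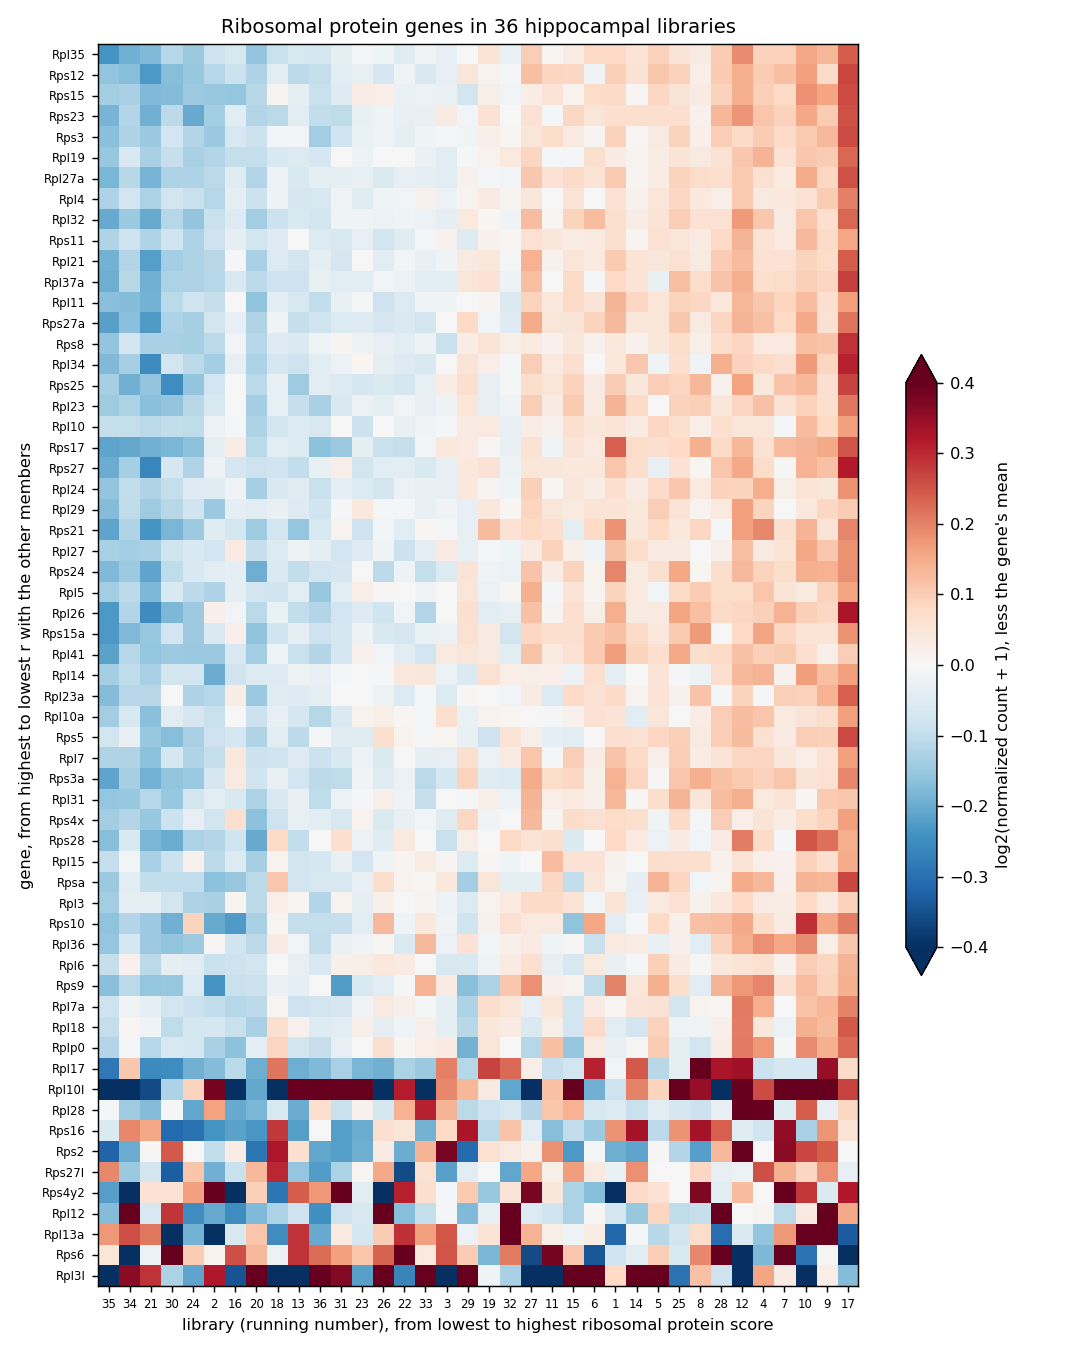
Each row is a member, with 60 of the 61 drawn, and each column 1 of the 36 libraries, ordered by the ribosomal protein score, and the colour gives log2(normalized count + 1) less the gene's mean, with values beyond 0.4 in either direction drawn in the end colours. Most rows change from blue to red across the libraries, while the 11 lowest rows, with r under 0.5 with the other members, follow that order less closely by Pearson r.

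The 2 subunits gave nearly the same order of libraries. The score over the 36 large subunit members and the score over the 25 small subunit members had r = 0.91 and rho = 0.90 over 36 libraries, and r = 0.89 without libraries 35 and 17, which lay farthest from the median score. The large minus the small subunit score ranged from -0.08 to 0.08 and had an SD of 0.035, against an SD of 0.079 for the score itself. Libraries 34 and 18 illustrate the departures. Library 34 scored -0.12 for the large and -0.20 for the small subunit, and library 18 scored -0.08 and -0.00. Single members weigh on these scores. In library 34, Rps6 and Rps4y2 of the small subunit stood at 567 and 19.1 normalized counts, against medians of 1570 and 39.1. Rpl10l of the large subunit stood at 6.99 there, against a median of 44.3. Whether the departures hold beyond such members was not tested.

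**Figure D2:**
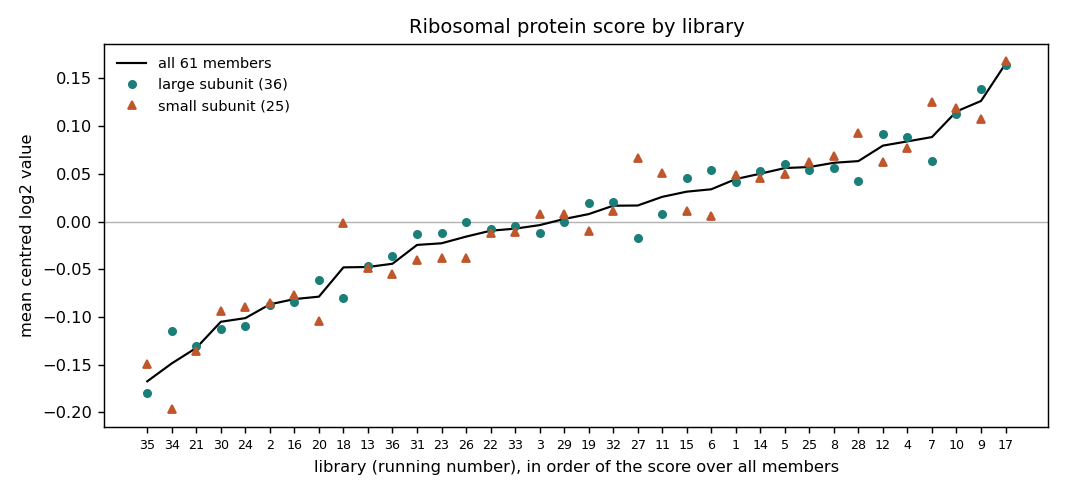
The line is the mean centred log2 value over all 61 members in each of 36 libraries, ordered from lowest to highest, circles are the 36 large subunit members and triangles the 25 small subunit members. Both subunits climb from library 35, at -0.18 and -0.15, to library 17, at 0.16 and 0.17.

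Pairs of members were far more often correlated than pairs of genes at large. The 1830 pairs of members had a median r of 0.70, and 66.1% of them were above 0.5. Over all 126285778 pairs of the 15893 genes with a mean of at least 10, the median r was -0.00 and 2.51% were above 0.5. The median was 0.71 for pairs within the large subunit, 0.70 within the small subunit and 0.70 for pairs across subunits, so pairs from the same subunit were about as correlated as pairs from different ones. It was 0.74 for pairs of canonical members. Rpl21 and Rpl27a, both large subunit proteins, formed the pair with the highest r (0.96). Rpl3l and Rps2 formed the pair with the lowest r (-0.58), and 7.70% of pairs were below 0.

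**Figure D3:**
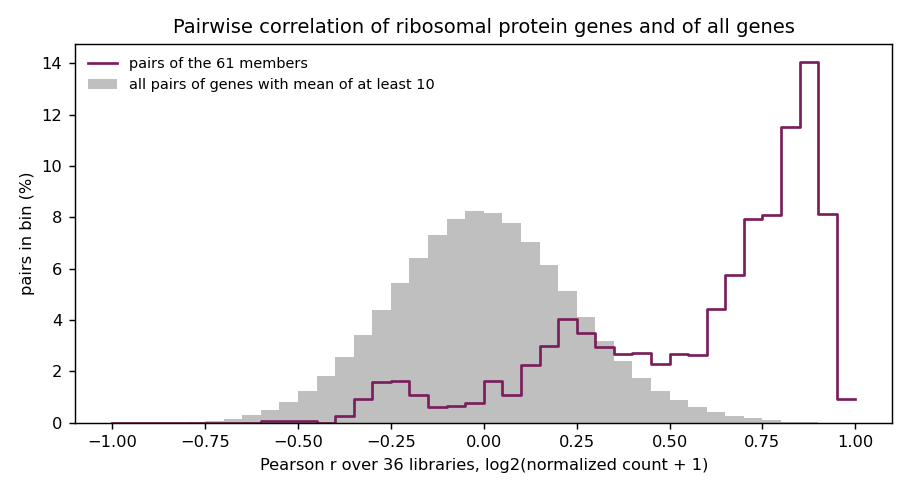
The outline gives the share of the 1830 member pairs in each bin of Pearson r over 36 libraries, and the grey bars give the same for all pairs of genes with a mean of at least 10. Member pairs pile up at high r, with a median of 0.70, while all pairs centre near 0.

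Each member was next set against the score of the other 60. The median r was 0.85, with 38 members at 0.8 or more and 50 at 0.6 or more. The limits of 0.8, 0.6 and 0.5 used here were chosen after the values were seen.

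Rpl35, a protein near the exit of the large subunit's peptide tunnel, followed the others most closely (r = 0.96, rho = 0.95, and r = 0.94 without the 2 farthest libraries). It ranged from 6765 normalized counts in library 35 through a median of 7963 to 9452 in library 17, so its extremes fell in the same libraries as those of the score. Rps23, a decoding-centre protein of the small subunit, ranged from 7799 in library 24 through 8945 to 10707 in library 17 (r = 0.93). Rps3, which lies at the messenger RNA entry channel, ranged from 7745 in library 35 through 8707 to 10411 in library 17 (r = 0.92). Both were highest in the library that was highest for the score.

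Rps12 ranged from 3557 in library 21 through 4141 to 5014 in library 17 (r = 0.93). Rps15 ranged from 4502 in library 21 through 5135 to 6102 in library 17 (r = 0.93). Both encode small subunit proteins and were lowest in library 21, the third lowest by score.

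The members with the smallest spread were all large subunit genes. Rpl6 had the lowest SD of log2 values (0.060) and ranged from 5433 through 5879 to 6434 normalized counts. Rpl3, whose protein reaches towards the peptidyl transferase centre, had an SD of 0.064 and ranged from 12412 through 13799 to 14566. Rpl15, Rpl10 and Rpl4 followed, at 0.068, 0.070 and 0.071. The median SD was 0.10 over the 61 members and 0.12 over all genes with a mean of at least 10. Of the 61, 46 lay below the latter. The 2 sets were not matched for level, since the members' means had a median of 4836 normalized counts. Whether members vary less than other genes of their level was not tested. In 55 of the 57 canonical members the highest library was under 2 times the lowest.

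The ribosomal stalk, on which translation factors dock, is built from Rplp0, Rplp1 and Rplp2. Rplp0 ranged from 7288 in library 29 through a median of 8293 to 9740 in library 17 and followed the score less closely than most (r = 0.61, rho = 0.55, and r = 0.53 without the 2 farthest libraries). Its closest partner among the members was Rpsa, the small subunit protein also known as a laminin receptor precursor, with r = 0.92 and rho = 0.89. Rpl7a (0.90) and Rpl18 (0.85) came next. Rpsa itself ranged from 8107 in library 2 through 9053 to 10928 in library 17 (r = 0.75 with the other members). Rplp1 and Rplp2 had no row under their own names.

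Rps27a is made as a fusion with ubiquitin. It ranged from 6229 in library 21 through 7250 to 8454 in library 17 (r = 0.90 with the other members). Fau, a fusion with a ubiquitin-like protein, falls outside the naming rule. It ranged from 6435 in library 21 through 7337 to 8365 in library 17 and had r = 0.94 with the score.

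Of the X-linked members, Rpl10 ranged from 5605 through 6098 to 6832 (r = 0.88), and Rps4x from 6167 through 6906 to 7743 (r = 0.79). Both were lowest in library 20 and highest in library 17. Rpl36a and Rpl39 had no row under those names.

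The 4 paralogs followed the score weakly, and Rpl3l, Rpl10l and Rps4y2 were sparse. Rpl3l ranged from 2.10 through 10.8 to 37.2 normalized counts and had r = -0.26 with the other members, and Rpl10l, a testis-associated paralog of Rpl10, ranged from 6.99 through 44.3 to 84.8 (r = 0.40). Rps4y2 ranged from 19.1 through 39.1 to 57.4 (r = 0.22). Rps27l ranged from 158 through 203 to 250 (r = 0.24), whereas its canonical counterpart Rps27 ranged from 2161 through 2574 to 3225 (r = 0.87). Among paralogs outside the naming rule, Rpl22l1 ranged from 1338 through 1503 to 1736 and had r = 0.69 with the score, and Rpl7l1, with r = 0.01, ranged from 776 through 841 to 936. Rpl22 itself had no row.

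In 7 canonical members r with the others was under 0.5. These were Rps6 (-0.22), Rpl13a (0.07), Rpl12 (0.20), Rps2 (0.27), Rps16 (0.28), Rpl28 (0.36) and Rpl17 (0.47). The same number of canonical members had an SD above 0.15, a limit also chosen after the values were seen. Reads of near-identical rows can be divided between them in counting, so each member was set beside a provisional row, named LOC or RGD with a number. Of the rows searched, it was the one whose normalized counts had the lowest r with the member. Only rows with a mean of at least 10 were searched. Rows whose SD was too small beside the member's to offset it were left out beforehand. The search ran over 130 to 903 rows per member and was itself chosen after the values were seen, after an earlier search by another measure. The partner was picked for its negative r and can offset the member's own departures. Hence that r, a smaller spread of the sum and a higher r of the sum with the other members are not results. Where the partner is the larger row, the sum's r with the other members also largely reflects the partner. The values of member, partner and sum are therefore given side by side as a description. Neither the likeness of their sequences nor a division of reads between the rows was tested.

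Rps6, the substrate of S6 kinase in the small subunit, ranged from 469 normalized counts in library 12 through a median of 1570 to 2467 in library 30. Its partner LOC100911372, which has no RefSeq name, ranged from 5480 in library 30 through 6618 to 8265 in library 17. The sum of both rows ranged from 7221 in library 21 through 8197 to 9216 in library 17. With the other members, r was -0.22 for Rps6, 0.77 for the partner, which is the larger row, and 0.85 for the sum.

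Rpl12, a protein at the base of the stalk, ranged from 2079 in library 16 through 2346 to 3675 in library 9. Its partner LOC102555453 ranged from 461 in library 30 through 1260 to 1563 in library 17. Their sum ranged from 3218 in library 24 through 3640 to 4306 in library 17. With the other members, r was 0.20 for Rpl12, 0.32 for the partner and 0.72 for the sum. The Pearson r of the pair was -0.78 and its rho was -0.13.

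**Figure D4:**
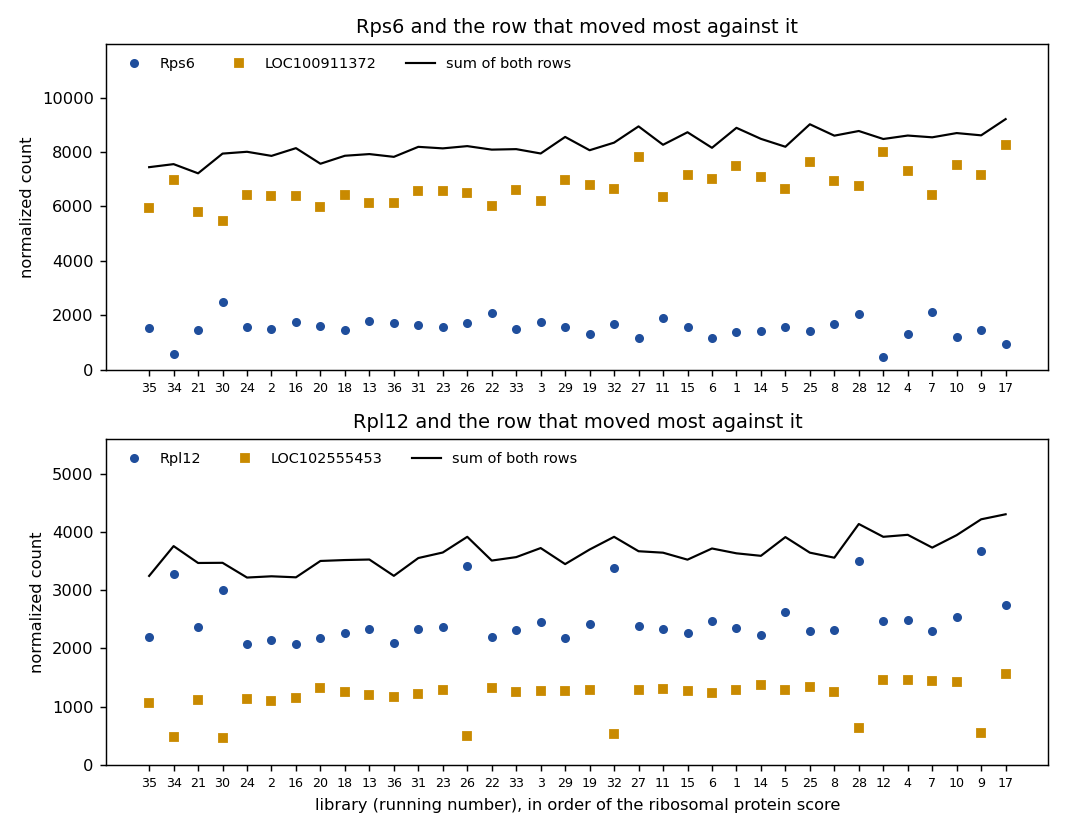
Normalized counts of Rps6 (top) and Rpl12 (bottom) in 36 libraries ordered by the ribosomal protein score are circles. Squares are the row with the lowest r to each among the rows searched, and the line is the sum of both. The sum for Rps6 ranges from 7221 to 9216 and the sum for Rpl12 from 3218 to 4306, and both sums are highest in library 17.

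The other 5 were set beside their partners in the same way. Rpl28, a large subunit protein, ranged from 1830 through 2042 to 2836 normalized counts, and r was 0.36 for Rpl28, 0.33 for LOC100362069 and 0.79 for the sum. Rpl13a ranged from 62.6 through 118 to 167, and r was 0.07 for Rpl13a, 0.38 for LOC100360750 and 0.50 for the sum. RefSeq names that partner Lsm6l1, a gene of another family, and its row is the larger of the pair. Rps2, a small subunit protein, ranged from 5967 through 7459 to 10480, and r was 0.27 for Rps2, 0.24 for LOC108350502 (Rps2-ps43 in RefSeq) and 0.52 for the sum.

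Rpl17 reached 9049 in library 8, next 7713 in library 9, against a median of 5739. The r was 0.47 for Rpl17, -0.07 for RGD1560017 (Rpl17-ps17 in RefSeq) and 0.52 for the sum. Rps16 ranged from 7341 through 8827 to 11653, and r was 0.28 for Rps16, -0.55 for LOC103693780 and 0.15 for the sum.

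Of the 79 canonical names, 20 had no row of their own. For 14 of these 20, rows that RefSeq names as numbered copies (a pseudogene or like-gene of that symbol) summed to a mean of at least 1000 normalized counts. Like-genes were taken by name, so the sum for Rpl22, with a mean of 3348, includes the paralog Rpl22l1. The 14 sums had means from 2097 to 10244, with a median of 4125, and r with the score from 0.68 to 0.94, with 13 of 14 at 0.8 or more. The largest was Rps7, whose copy row Rps7-ps23 ranged from 8899 in library 35 through 10160 to 12044 in library 17 (r = 0.94). Rows of the same kind stood for Rps29 (Rps29-ps15, r = 0.93), Rps13 (Rps13-ps10, 0.92), Rps14 (Rps14-ps7, 0.91), Rps26 (Rps26l5, 0.91) and Rps20 (Rps20-ps12, 0.90). Rplp2, the stalk protein, had the like-gene Rplp2l3 with a mean of 2923 and r = 0.82. For Rpl13, Rpl36a, Rpl37, Rpl38, Rplp1 and Rps19 the copies had no row or summed to a mean under 100.

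Outside the members, the 10 genes whose pattern was most like the score over 36 libraries by Pearson r were 8 provisional rows, Fau and Tpt1. Of the 8, the 6 named in the last paragraph for Rps7, Rps29, Rps13, Rps14, Rps26 and Rps20 are copies of ribosomal protein genes, and LOC100360522 (0.94) and LOC100360781 (0.93) have no gene name in RefSeq. Tpt1, the translationally controlled tumour protein and itself a TOP messenger RNA, ranged from 14476 in library 21 through 16655 to 19881 in library 17 (r = 0.93). The 5 genes with the lowest r were Madd (-0.88), Trio (-0.84), Fam65b (-0.83), Tbc1d24 (-0.83) and Adar (-0.82). Madd, a regulator of Rab3 at synaptic vesicles, ranged from 6591 in library 17 through 7759 to 8436 in library 21, so it was lowest in the library with the highest score and highest in the third lowest. Trio and Tbc1d24 act on small GTPases, and Adar edits adenosines in RNA.

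Other genes of translation were taken from fixed lists, and each count is set beside all 15832 other genes with a mean of at least 10, of which 5.14% had r above 0.5 with the score and 6.91% had r below -0.5. Of the 18 measured genes of the translation factor list, 9 were above 0.5 and 0 below -0.5, and the median r was 0.53. Not every gene of that list is a translation factor, and the 9 include Tpt1, named in the last paragraph. Eef1b2, an exchange factor for elongation factor 1, ranged from 3101 through 3557 to 3912 (r = 0.81), and Eif3h, a subunit of initiation factor 3, from 3835 through 4195 to 4448 (r = 0.74). Rack1, a scaffold on the small subunit, had r = 0.64, and Hnrnpa1, an RNA-binding protein, had -0.20. The mean of the list had r = 0.89 with the score. Many genes of the list are TOP messenger RNAs, and the list was chosen for that.

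Of 73 mitochondrial ribosomal proteins, which build the separate ribosome inside mitochondria, 19 were above 0.5 and 0 below -0.5. Their median r was 0.32, from -0.20 for Mrps10 to 0.73 for Mrpl23, and the mean of the list had r = 0.66. Of 25 ribosome biogenesis genes, 1 was above 0.5 and 1 below -0.5, with a median r of 0.18. The mean of the list had r = 0.42 and rho = 0.53 with the score, and r = 0.59 without the 2 farthest libraries. The outlying genes were Nop10 of the box H/ACA particles (0.64) and Polr1a, the catalytic subunit of RNA polymerase I (-0.62). Myc, a transcription factor for ribosome genes, had r = 0.29 and Npm1, a nucleolar chaperone, 0.31.

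Of 13 mTOR pathway genes, 4 were below -0.5 and 0 above 0.5, with a median r of -0.11. The mean of the list had r = -0.35, or -0.48 without the 2 farthest libraries. Mtor, the kinase, ranged from 3982 in library 4 through 4366 to 4818 in library 2 (r = -0.76). Tsc1, an inhibitor of the pathway, had r = -0.70, Larp1, the TOP-binding protein, -0.65, and Rptor, a partner of the kinase, -0.52. Both S6 kinase genes, Rps6kb1 (0.11) and Rps6kb2 (0.13), were near 0. These are transcript levels and say nothing of kinase activity.

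**Figure D5:**
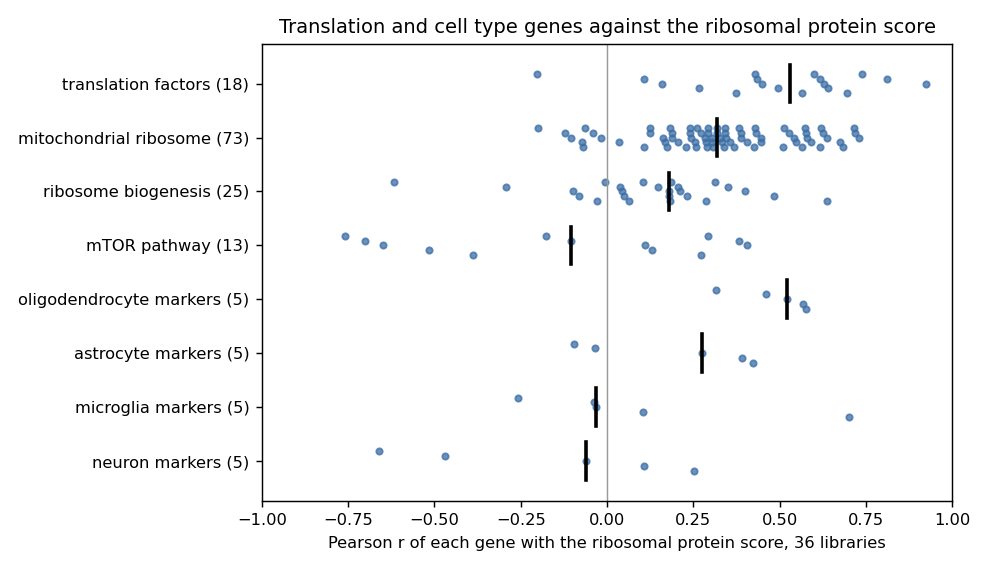
Each point is 1 gene of a fixed list, placed by its Pearson r with the ribosomal protein score over 36 libraries, with the number of genes in brackets and a bar at the list's median. The translation factor list has a median of 0.53 and mitochondrial ribosomal proteins 0.32, while the mTOR pathway list has a median of -0.11 with 4 genes below -0.5.

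Several measures of the libraries moved with the score, and their part in it was not tested. The first principal component of the 15832 other genes, which held 8.31% of their variance, had r = 0.71 with the score (r = 0.66 without the 2 farthest libraries). The sign of a component is arbitrary and was set so that this r is positive. The column total had r = 0.62 and the mitochondrially encoded share of the total, which ran from 9.00 to 13.02%, had r = 0.58, or 0.44 without the 2 farthest libraries. Library 17, the highest by score, also had the highest mitochondrially encoded share. After scaling every column to the same total, the median r of member pairs was 0.65.

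Gene length moved with the score as well. Over the 13457 genes with a RefSeq gene span, the rank correlation of span with r to the score was -0.34. Over 5 bins of equal size, from the shortest to the longest genes, the median r fell from 0.14 through 0.08, 0.01 and -0.08 to -0.17. Members had a median span of 3.20 kb, against 25.8 kb for the other genes. Genes are not independent replicates, and the part of gene length in the members' pattern was not tested.

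Of the cell type lists, the 5 oligodendrocyte markers had the highest r as a list mean (0.52, or 0.44 without the 2 farthest libraries), and 3 of 5 were above 0.5. Mbp, the myelin basic protein, ranged from 61903 in library 16 through 95531 to 200540 in library 17 (r = 0.58), and the summed level of the list from 115024 to 312552. The 5 neuron markers had r = -0.31 as a list mean, but 0.00 without the 2 farthest libraries, and their summed level ran from 170114 to 223939. The lists for astrocytes (0.20), microglia (0.12), endothelium (0.31), choroid plexus (0.36), leptomeninges (0.03) and blood (0.23) had lower values than the oligodendrocyte list over all libraries. Without libraries 35 and 17 these were 0.0060 for astrocytes, 0.35 for microglia, 0.042 for endothelium, 0.41 for choroid plexus, 0.042 for leptomeninges and 0.098 for blood. Single markers departed from their lists, with Aif1 of microglia at 0.70 and the synaptic vesicle gene Syt1 at -0.66. Pecam1 of the endothelial list and Hba-a1 of the blood list had no row, so each of these lists held 2 genes. No row of any gene was at 0 in every library, so each marker with a row is above 0 in some library by construction. The part of cell composition in the score was not tested, and in tissue RNA fewer cells of a type and less RNA per cell cannot be told apart.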

How the data were processed

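Total RNA of 36 frozen hippocampi was sequenced, and a single table of normalized counts per gene (a library-scaled signal, not whole reads) was deposited by the authors. Kallisto 0.43 and DESeq2 appear in the submitters' processing notes with no role stated. The transcriptome used for counting was not given in the sources used here. Deposited values could not be turned back into reads, so the depth of each library is unknown and no interval from counts is given. Column names could not be tied to the 6 groups, so all 36 columns entered as 1 set carrying the tissue label only, with 0 columns left unused.

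Values were analysed as log2(value + 1) in Python 3.11.15 with numpy 2.4.6, pandas 2.3.3 and scipy 1.17.1, and plotted with matplotlib 3.10.9. The scripts were tested on simulated data with a known shared factor. Genes named are those with the highest or lowest SD and the highest or lowest r (5 each), the stalk, X-linked and ubiquitin-fusion proteins, Rpsa, Rps6, paralog pairs, genes at the minimum mean, canonical names with no row, and the 10 most and 5 least like non-members. The 7 members with r under 0.5, the partner rows, the copy sums, the C or T run, the motifs and other names from the lists were chosen after their values were seen. A planned ranking of members by level per amino acid was not run, since protein lengths were not used here, and levels are not compared between genes. Rows were matched by symbol to RefSeq (GRCr8), which gave symbols for 17204 of 20603 rows. Some items are not reported here by name. The members and lists were chosen with earlier results of these data known.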

Additional observations from a re-analysis of the deposited data

How the results depend on the processing

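Recomputed median-ratio size factors were 1.00 in every library, so that setting could move nothing and is not counted. Of 117 values recomputed under the other 11 settings, 106 were counted as unchanged, 10 as moved and 1 changed sign. Unchanged meant within 1 jackknife standard error over libraries. The number of members, whose jackknife standard error was 0, was instead judged by its fold change and counted as unchanged. Without libraries 35 and 17, the SD of the score was 0.070, the median r of member pairs 0.65, and the r of the score with the microglia, endothelial and neuron marker lists 0.35, 0.042 and 0.0039, the last from -0.31. Without the 11 members with r under 0.5, the median pair r was 0.80 and the r of large with small subunit score 0.99. The r of the score with the translation factor list was 0.94. This setting was chosen after seeing the data and raises these r values by its construction. The score's r with the paralog list was then 0.23, against 0.51 as reported. In this setting that list gained Rpl3l, Rpl10l, Rps27l and Rps4y2, left out as members for their low r, so those values are of different genes. Spearman's rho for Rpl17 was 0.65. With RefSeq-named copies summed into the members, also chosen after seeing the data, r for Rps2 was 0.49. In that setting r was 0.20 for Rpl12, 0.38 for Rpl28 and 0.55 for Rpl17, all counted as unchanged. Rps6, Rps16 and Rpl13a had no RefSeq-named copy to add. Minimum means of 100 and of none gave 58 and 62 members. Equal column totals shifted the median of all genes by at most 0.035 on the log2 scale. No paired analysis was possible because the columns carry no replicate numbers from the labels. The values rest on 1 table of unknown depth, on libraries of unknown group, and on a reference in which ribosomal protein copies are separate rows.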

Other observations

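Rpl12 was between 2079 and 2743 normalized counts in 30 libraries and between 3010 and 3675 in the other 6, with library 30, at 3010, lying about as far from the next value above it (3274) as from the next below. The row LOC102555453, which was picked for its negative r with Rpl12, had 6 libraries from 461 to 633 and 30 from 1056 to 1563. Libraries 9, 26, 28, 30, 32 and 34 held the 6 highest Rpl12 values and the 6 lowest LOC102555453 values. For libraries 1 to 12, Rpl12 was at 2353, 2147, 2462, 2490, 2624, 2480, 2291, 2317, 3675, 2533, 2339 and 2468. For libraries 13 to 24, it was at 2331, 2224, 2264, 2079, 2743, 2265, 2416, 2184, 2361, 2198, 2365 and 2080. For libraries 25 to 36, it was at 2304, 3419, 2379, 3506, 2186, 3010, 2333, 3387, 2311, 3274, 2190 and 2084. The LOC102555453 row was at 1282, 1092, 1263, 1463, 1289, 1238, 1442, 1243, 544, 1414, 1307 and 1450 in libraries 1 to 12. In libraries 13 to 24 the row was at 1197, 1368, 1261, 1144, 1563, 1254, 1284, 1319, 1107, 1312, 1284 and 1138. In libraries 25 to 36 the row was at 1343, 499, 1292, 633, 1263, 461, 1221, 531, 1258, 485, 1056 and 1163.

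For Rps6, libraries 12 and 34 read 469 and 567 normalized counts, and the next lowest, library 17, read 951. The row RGD1560017 (Rpl17-ps17), which was picked for its negative r with Rpl17, read 16.7 in library 8 and 177 or more in the other 35 libraries. Library 8 is also the library in which Rpl17 was highest, and opposite extremes of this kind are part of what picked the row. The Pearson r of the pair was -0.84 and its rho was -0.40.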
